A study of Homo sapiens with 12 samples.

Results

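The clustered protocadherins are cadherin-like proteins of the cell surface that are encoded in an alpha, a beta and a gamma cluster on human chromosome 5. They were taken as every row of the count table whose symbol names a gene of one of these clusters, which gave 5 of 14438 genes. All 5 were gamma genes, namely PCDHGA11, PCDHGB5, PCDHGB7, PCDHGC3 and PCDHGC4. GENCODE lists 22 coding genes in the gamma cluster, 15 in the alpha cluster and 16 in the beta cluster, and the remaining gamma genes and all alpha and beta genes were not analysed here.

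Polyadenylated RNA of 4 HEK293T lines was sequenced, each in 3 biological replicates. HEK293T is an established cell line from human embryonic kidney. Each line had been infected with a lentivirus for one form of EZH2, the methyltransferase subunit of the Polycomb repressive complex PRC2, which methylates lysine 27 of histone H3. The forms were EZH2 WT, the gain-of-function (GOF) mutants EZH2 Y641F and EZH2 A677G, and the loss-of-function (LOF) double mutant EZH2 H689A/F667I. According to the methods, the lines were selected with blasticidin as monoclonal populations, so the mutation and the clone cannot be told apart. No removal of the cells' own EZH2 gene is described. The lines are called WT, Y641F, A677G and LOF here.

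Neurons use clustered protocadherins to tell their own branches from those of other cells, since a protocadherin binds the same isoform on a neighbouring membrane. Each gamma gene has its own promoter and 1 large variable first exon, which codes for the outside and membrane parts of the protein. This exon is spliced to the same constant exons, which code for a shared end inside the cell. Many promoters are chosen with the help of CTCF and cohesin, which loop them to distant enhancers, and many are silenced by DNA methylation. The genes called C-type, here PCDHGC3 and PCDHGC4, stand at the end of the cluster next to the constant exons and are used in a more regular way than the others.

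On GRCh38 with GENCODE annotation, the 5 genes lie on the plus strand of chromosome 5. The first is PCDHGB5 (ENSG00000276547.2) at chr5:141397947-141512975. It is followed by PCDHGB7 (ENSG00000254122.3) at chr5:141417645-141512975 and PCDHGA11 (ENSG00000253873.6) at chr5:141421047-141512975. PCDHGC3 (ENSG00000240184.7) is at chr5:141475947-141512977 and PCDHGC4 (ENSG00000242419.6) at chr5:141484997-141512975. The genes share their ends because all of them run into the constant exons. First exons were 2578 bases long in PCDHGB5, 2598 in PCDHGB7, 2610 in PCDHGA11, 2581 in PCDHGC3 and 2586 in PCDHGC4.

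**Figure D1:**
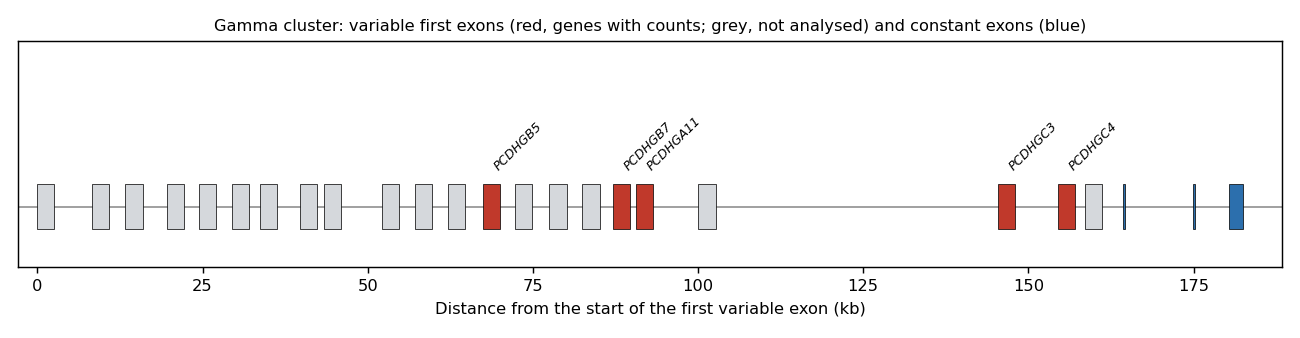
Variable first exons and constant exons of the gamma cluster, drawn to scale along the distance in kb from the start of the first variable exon. Red boxes are the 5 genes with counts, grey boxes are the other gamma genes, which were not analysed here, and blue boxes are the constant exons. PCDHGB7 and PCDHGA11 are next to each other, and both C-type genes lie close to the constant exons.

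The constant exons are at chr5:141494807-141494865, chr5:141505393-141505481 and chr5:141510947-141512975. They were found in the canonical transcripts of all 22 gamma genes and made up 45.5% of the PCDHGA11 transcript and 45.8% of the PCDHGB5 transcript. A read that lies within them carries no sign of its gene, so a count for a gamma gene rests on how the quantification divided such reads. The first 2 constant exons are shown because the canonical transcripts of all 5 genes contain them. Other annotated transcripts of these genes were not examined.
Constant exon 1: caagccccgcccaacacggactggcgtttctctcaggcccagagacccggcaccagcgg
Constant exon 2: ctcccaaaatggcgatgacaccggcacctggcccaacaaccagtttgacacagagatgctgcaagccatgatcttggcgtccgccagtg

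The coding parts of the first exons were less alike. Identity between any pair of the 5 genes ranged from 53.6% for PCDHGB5 and PCDHGC4 to 72.7% for PCDHGB5 and PCDHGB7. Some had closer relatives among the 52 other clustered genes. The PCDHGB5 exon was 84.5% identical to that of PCDHGB4 and shared an exact run of 450 bases with it. PCDHGB7 was 78.7% identical to PCDHGB6, with an exact run of 136 bases. PCDHGA11 was 75.6% identical to PCDHGA12, and its longest exact run, with PCDHGA3, was 71 bases. The C-type exons stood further apart, as PCDHGC3 reached 56.3% with PCDHAC2 and PCDHGC4 reached 59.4% with PCDHGC5. Reads within such exact runs could be shared between genes, and how many were was not measured here, so the counts of PCDHGB5 and PCDHGB7 are uncertain in this respect.

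Many promoters of clustered protocadherins, but not all, are known for a conserved sequence element around the letters CGCT. RefSeq promoter windows (GRCh38.p14, from 250 bases before to 50 after the start) were found for all 5 genes. A script searched them for the 14-base stretch most alike in the 5, which was GCCGCNGNNNNCCA with 9 letters the same in all, so its presence in them follows from the search. It started 70 bases before the RefSeq start of PCDHGB5, 80 before that of PCDHGB7, 65 before that of PCDHGA11, 72 before that of PCDHGC3 and 64 before that of PCDHGC4. RefSeq starts lay 0 to 33 bases after the GENCODE gene starts given above, at chr5:141485030 for PCDHGC4. RefSeq gives 2 of the genes a later start as well, and in those windows the stretch was 208 bases before the start of PCDHGC4 and not present for PCDHGB5. The 50 bases around it are shown with this stretch in capitals, since they let the 5 promoters be compared.
PCDHGB5, chr5:141397859-141397908: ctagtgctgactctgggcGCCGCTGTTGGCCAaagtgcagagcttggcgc
PCDHGB7, chr5:141417579-141417628: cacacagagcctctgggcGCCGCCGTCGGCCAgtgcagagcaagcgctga
PCDHGA11, chr5:141420968-141421017: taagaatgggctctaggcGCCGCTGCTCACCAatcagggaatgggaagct
PCDHGC3, chr5:141475876-141475925: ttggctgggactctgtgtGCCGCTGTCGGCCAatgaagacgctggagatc
PCDHGC4, chr5:141484948-141484997: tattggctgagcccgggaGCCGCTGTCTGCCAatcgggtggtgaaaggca

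On either strand, the stretch was in the promoters of 432 of 27305 genes, or 1.58%. It was in 4 of the 15 other gamma genes with a window, in 0 of 13 alpha genes and in 0 of 14 beta genes. Within the stretch, the letters CGCT were found in PCDHGB5, PCDHGA11, PCDHGC3 and PCDHGC4 but not in PCDHGB7. Anywhere in the window and read on both strands, these letters were in the promoters of all 5 genes, but also in 71.9% of all promoters. Their presence therefore does not show that any of the 5 promoters carries the known element. A match of letters is a description of the window and does not show that a protein binds there.

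Total counts were 32137700 to 44562413 per sample. The kidney line's markers VIM, NEFL, NEFM and EMX2 had counts in all samples, and PAX2 was listed at 0 in the 3 A677G samples. None of the 7 markers chosen for blood, endothelial and liver cells had a row in the table. EZH2 itself was at 158 ± 4.32 CPM (counts scaled to library size after TMM normalization, SD, n = 3) in WT. It was at 218 ± 9.61 CPM in Y641F, 173 ± 8.57 CPM in A677G and 208 ± 2.03 CPM in the LOF line (SD, n = 3 each). Counts per gene do not show which form of EZH2, introduced or the cells' own, was read.

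The gamma genes were weakly expressed and of very unequal level. Per kb of annotated exon, the mean over the 12 samples was 2.42 CPM for PCDHGC3, 0.666 for PCDHGA11, 0.118 for PCDHGC4, 0.0655 for PCDHGB7 and 0.0446 for PCDHGB5. By mean CPM without length, PCDHGC3 ranked above 38.8% of the genes in the table, PCDHGA11 above 23.1% and PCDHGC4 above 4.54%. PCDHGB7 ranked above 0.838% and PCDHGB5 above 0.339%, so both were among the lowest genes by this mean. For these 2 genes, the means per kb and the ranks include the samples in which they were listed at 0. In WT, PCDHGB5 was below PCDHGB7 (0.290 and 0.397 CPM), and in Y641F it was above (0.581 and 0.392 CPM). The order of these 2 genes therefore depends on what the entries at 0 mean. In bulk RNA, fewer cells with a transcript and less of it in each cell cannot be told apart.

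PCDHGC3 had 513, 491 and 446 counts in the WT samples and 611, 510 and 578 in Y641F. In A677G it had 605, 460 and 483 counts, and in the LOF line 472, 542 and 374. Scaled to library size, its level was 13.3 ± 0.593 CPM in WT, 13.9 ± 0.590 CPM in Y641F, 12.7 ± 1.23 CPM in A677G and 12.7 ± 1.10 CPM in the LOF line (SD, n = 3 each). The ranges of all lines overlapped with that of WT. PCDHGC3 was the member with the most counts and the least spread, with a coefficient of variation of 7.09% over the 12 samples. Relative spread is larger at low counts, so this does not rank how steadily the members were expressed.

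PCDHGA11 had 141, 150 and 114 counts in WT and 153, 116 and 167 in Y641F. In A677G it had 190, 203 and 142 counts, and in the LOF line 129, 147 and 139. Its level was 3.71 ± 0.239 CPM in WT, 3.54 ± 0.458 CPM in Y641F, 4.38 ± 0.557 CPM in A677G and 3.85 ± 0.421 CPM in the LOF line (SD, n = 3 each). The lowest A677G sample, at 3.89 CPM, was just above the highest WT sample, at 3.88 CPM. Such a pattern was common in the table, as 12.5% of the genes tested were higher in all A677G samples than in all WT samples.

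PCDHGC4 was counted in every sample, at 20, 24 and 7 counts in WT and 42, 25 and 22 in Y641F. It had 19, 35 and 26 counts in A677G and 22, 13 and 18 in the LOF line. Its level was 0.458 ± 0.217 CPM in WT, 0.725 ± 0.246 CPM in Y641F, 0.666 ± 0.221 CPM in A677G and 0.495 ± 0.143 CPM in the LOF line (SD, n = 3 each). All lines overlapped, and the 7 counts of WT replicate 3 were the lowest value.

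PCDHGB7 had 8, 26 and 10 counts in WT, 23, 6 and 20 in Y641F and 34, 18 and 12 in A677G. It was listed at 0 in the 3 samples of the LOF line. Its level was 0.397 ± 0.243 CPM in WT, 0.392 ± 0.207 CPM in Y641F and 0.511 ± 0.225 CPM in A677G (SD, n = 3 each). These 3 lines overlapped.

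PCDHGB5 had 6, 18 and 8 counts in WT and 38, 14 and 20 in Y641F. It was listed at 0 in the 3 A677G samples and in the 3 samples of the LOF line. Its level was 0.290 ± 0.157 CPM in WT and 0.581 ± 0.284 CPM in Y641F (SD, n = 3 each), and the 2 ranges overlapped because WT replicate 2 was above Y641F replicate 2.

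**Figure D2:**
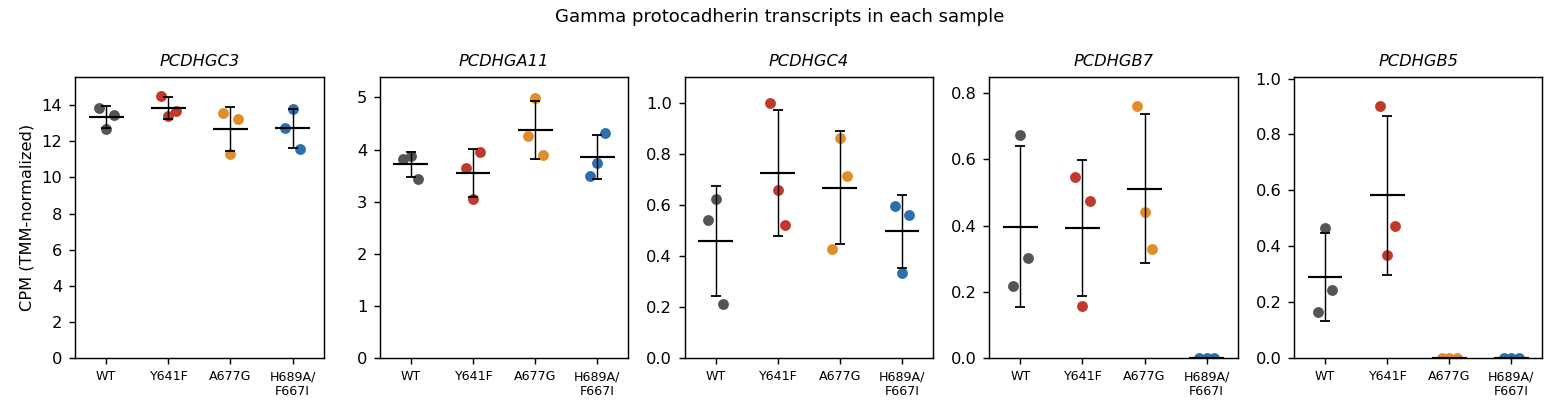
CPM of the 5 gamma genes by line, on a linear axis that starts at 0 and differs between panels. Points are the 3 replicates, and bars give the mean and SD. Mean levels lie between 12.7 and 13.9 CPM for PCDHGC3 and between 3.54 CPM (Y641F) and 4.38 CPM (A677G) for PCDHGA11. PCDHGB7 is listed at 0 in the LOF line and PCDHGB5 in A677G and the LOF line.

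The entries at 0 followed a pattern of the whole table. In A677G, 134 genes were at 0 in all 3 replicates and 0 genes in 2 of 3, and the lowest summed count above 0 was 10. In the LOF line, 100 genes were at 0 in all replicates, 0 genes in 2 of 3, and the lowest summed count above 0 was 14. WT and Y641F had 0 genes at 0 in all replicates. Of the 27 genes whose summed count in WT was at or below the 32 of PCDHGB5, 21 were listed at 0 in A677G and 21 in the LOF line. Of the 177 genes at or below the 44 of PCDHGB7, 70 were listed at 0 in the LOF line. The table does not show whether such a 0 is a count of reads or an entry that was emptied, so no fold is given against these lines.

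Low values had a further feature. Even numbers made up 63.6% of the values from 1 to 40 in the table and 50.4% of those over 1000. All 6 values of PCDHGB5 above 0 were even, and so were 8 of the 9 of PCDHGB7. No counting interval is given for such values, and the part of this feature in the results was not tested.

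Together the 5 genes reached 18.2 ± 0.501 CPM in WT, 19.1 ± 1.49 CPM in Y641F, 18.3 ± 0.720 CPM in A677G and 17.1 ± 0.724 CPM in the LOF line (SD, n = 3 each). The lowest sample was at 16.5 CPM and the highest, Y641F replicate 1, at 20.6 CPM. For the 3 genes counted in every sample, the sums were 17.5 ± 0.626 CPM, 18.1 ± 1.03 CPM, 17.8 ± 0.562 CPM and 17.1 ± 0.724 CPM in the same order (SD, n = 3 each). PCDHGC3 made up 64.2% to 77.2% of the sum in a sample, and PCDHGA11 17.3% to 28.4%. The highest PCDHGA11 share and the lowest PCDHGC3 share were both in A677G replicate 2. These shares depend on each other, as they add up to the whole.

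**Figure D3:**
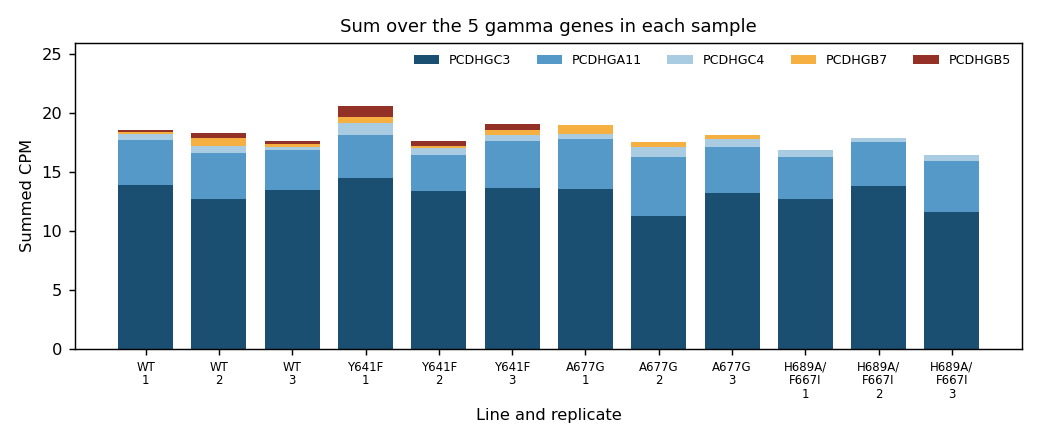
Summed CPM of the 5 gamma genes in each of the 12 samples, stacked by gene. PCDHGC3 forms the largest part of every bar, and the sums lie between 16.5 and 20.6 CPM.

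The comparisons asked whether the GOF or LOF forms of EZH2 changed transcript levels relative to WT and to each other. The test was edgeR's quasi-likelihood test over 14263 genes, with p-values adjusted by the Benjamini-Hochberg method and a threshold of 0.05. PCDHGA11, PCDHGC3 and PCDHGC4 were tested in this fit, while PCDHGB5 and PCDHGB7 were left out with the other genes listed at 0 in a whole line. Of these 3 members, 0 passed the test in any of the 5 comparisons, 0 had an unadjusted p under 0.05, and DESeq2 called 0 as well. The background was as follows. Against WT, 5.59% of all genes tested fell and 2.09% rose in Y641F, 6.48% fell and 2.07% rose in A677G, and 0.161% fell and 0.14% rose in the LOF line. Of Y641F set against A677G, 0.014% were lower and 0.0701% higher, and for the mean of the GOF mutants against the LOF line the shares were 8.75% and 3.81%. With shares of this size, 0 of 3 members is no result about the cluster.

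For PCDHGC3 the differences were bounded tightly. The log2 fold change against WT was 0.06 in Y641F (95% interval -0.13 to 0.24, edgeR adjusted p = 0.814). In A677G it was -0.07 (95% interval -0.25 to 0.11, edgeR adjusted p = 0.741), and in the LOF line -0.07 (95% interval -0.25 to 0.12, edgeR adjusted p = 0.896). As folds, the interval reached from 0.915 to 1.18 in Y641F, from 0.838 to 1.08 in A677G and from 0.840 to 1.09 in the LOF line. These intervals cover the spread between replicates and not how reads of the constant exons were divided. The GOF mutants differed from each other by 0.13 on the log2 scale (95% interval -0.06 to 0.31, edgeR adjusted p = 0.844).

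PCDHGA11 differed from WT by -0.07 on the log2 scale in Y641F (95% interval -0.39 to 0.25, edgeR adjusted p = 0.883). The value in A677G was 0.24 (95% interval -0.08 to 0.55, edgeR adjusted p = 0.421), and in the LOF line 0.05 (95% interval -0.27 to 0.37, edgeR adjusted p = 0.965). The largest contrast of this gene was between the GOF mutants, at -0.30 for Y641F against A677G (95% interval -0.62 to 0.01). Its unadjusted p was 0.0553 in edgeR's test and its adjusted p was 0.736.

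PCDHGC4 had wide intervals. It differed from WT by 0.64 on the log2 scale in Y641F (95% interval -0.16 to 1.44, edgeR adjusted p = 0.406) and by 0.51 in A677G (95% interval -0.30 to 1.32, edgeR adjusted p = 0.536). In the LOF line the value was 0.08 (95% interval -0.78 to 0.94, edgeR adjusted p = 0.980). The mean of the GOF mutants against the LOF line gave 0.49 (SE 0.348, edgeR adjusted p = 0.421). The interval in Y641F reached from 0.895-fold to 2.71-fold. The size of these values depended on single samples. In Y641F the log2 fold change lay between 0.32 and 0.92 when each replicate was left out in turn. Without WT replicate 3, the sample with 7 counts, the log2 fold change was 0.32 in Y641F and 0.19 in A677G. It was 0.33 in Y641F without Y641F replicate 1 and 0.27 in A677G without A677G replicate 2, and without WT replicate 2 it was 0.79 in A677G.

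PCDHGB5 and PCDHGB7 were compared among lines with counts in a fit of those lines alone, which was added after the counts were seen. PCDHGB5 was higher in Y641F than in WT by 0.99 on the log2 scale (SE 0.457, 95% interval 0.06 to 1.92), with an unadjusted p of 0.0380 and an adjusted p of 0.263 by edgeR, so it did not pass. Without Y641F replicate 1, the sample with 38 counts, the value was 0.52, and without WT replicate 2 it was 1.53. PCDHGB7 differed from WT by -0.02 in Y641F (95% interval -0.99 to 0.95, edgeR adjusted p = 0.993) and by 0.37 in A677G (95% interval -0.51 to 1.24, edgeR adjusted p = 0.672). If the entries at 0 were taken as counts and kept in the fit of all lines, edgeR called PCDHGB5 lower than WT in A677G (adjusted p = 5.0e-04) and in the LOF line (adjusted p = 0.00354). It then also called PCDHGB7 lower in the LOF line (adjusted p = 8.24e-04). The calls on these genes rest on what the zeros mean.

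**Figure D4:**
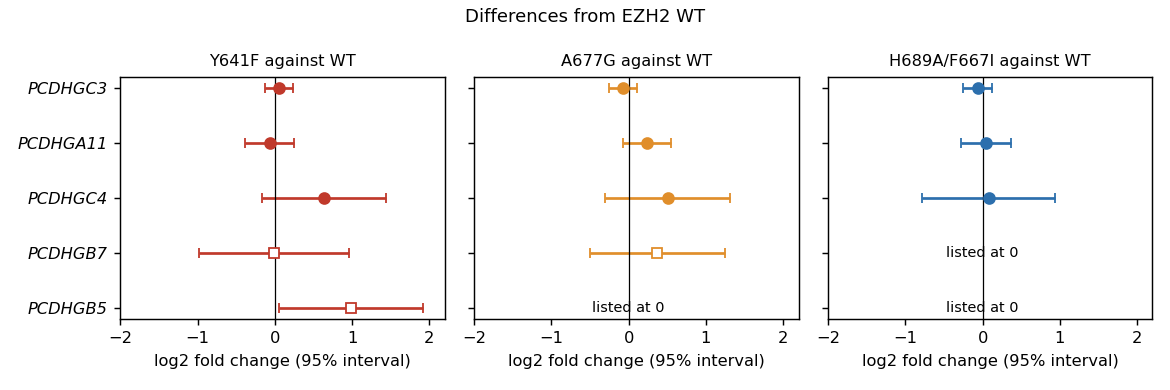
Log2 fold changes of the 5 gamma genes in each mutant line against WT, with 95% intervals. Filled circles are from the fit of all lines and open squares from the fit of the compared lines alone. All intervals contain 0 except that of PCDHGB5 in Y641F, whose adjusted p was 0.263, and genes listed at 0 have no value.

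The regulators of these promoters gave 2 calls against WT, both of 1 gene. For comparison, 5.59% of all genes tested fell in Y641F, 6.48% in A677G and 0.161% in the LOF line. The shares that rose were 2.09%, 2.07% and 0.14% in the same order. Of 20 regulators in the table, among them CTCF, the cohesin subunits, the DNA methyltransferases and SMCHD1, 0 rose in any mutant against WT. WIZ, a zinc finger partner of the histone H3 lysine 9 methyltransferases, fell by 0.17 on the log2 scale in Y641F (edgeR adjusted p = 0.0370) and by 0.23 in the LOF line (edgeR adjusted p = 0.0443). The median log2 fold change of the 20 was 0.00 in Y641F, 0.02 in A677G and -0.02 in the LOF line, beside medians of 0.00 over all genes in each comparison. Both WIZ calls were lost with a GC correction and when single WT replicates were left out.

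Among 18 partners that cut protocadherins or signal from them, 2 rose in Y641F, 4 in A677G and 0 in the LOF line, and 0 fell against WT. Over all genes tested, 2.09% rose in Y641F, 2.07% in A677G and 0.14% in the LOF line. The shares that fell were 5.59%, 6.48% and 0.161%. Whether the partners differed from the other genes as a set was not tested. ADAM10, the protease that sheds the outside part of gamma protocadherins, rose by 0.16 in Y641F (edgeR adjusted p = 0.0138) and by 0.14 in A677G (edgeR adjusted p = 0.0249) on the log2 scale. PTK2, the focal adhesion kinase that the constant end of gamma protocadherins inhibits, rose by 0.16 in Y641F (edgeR adjusted p = 0.0123) and by 0.17 in A677G (edgeR adjusted p = 0.00678). The other calls were CYFIP1 and CYFIP2, of the WAVE complex, in A677G, at 0.13 and 0.18. Each of these calls was lost when at least 1 of the replicates was left out, ADAM10 in Y641F without WT replicate 1 and PTK2 in A677G without WT replicate 2.

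Of 19 genes that flank the clusters on the chromosome, 0 passed the test in Y641F and 1 each in A677G and the LOF line. Of all genes tested, 5.59% fell and 2.09% rose in Y641F, 6.48% and 2.07% in A677G, and 0.161% and 0.14% in the LOF line. The call in both was DIAPH1, a formin gene near the gamma cluster, which fell by 0.18 in A677G (edgeR adjusted p = 0.00787) and by 0.25 in the LOF line (edgeR adjusted p = 0.00369) on the log2 scale. Both calls were lost without WT replicate 1.

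Of 10 protocadherin genes outside the clusters, 2 rose and 8 did not pass the test in Y641F, where 2.09% of all genes tested rose. In A677G, 3 rose, 1 fell and 6 did not pass, beside 2.07% of all genes tested that rose and 6.48% that fell. In the LOF line 0 of 10 passed, beside 0.161% of all genes tested that fell and 0.14% that rose. With shares this small, 0 of 10 is no result about these genes. For the mean of the GOF mutants against the LOF line, PCDH7, PCDH10 and PCDH17 were higher and PCDH1, PCDH9 and PCDH20 lower. The shares over all genes were 3.81% and 8.75%. PCDH20 was lower by 0.46 on the log2 scale there (edgeR adjusted p = 2.29e-04). These calls were not followed through the alternatives. PCDH10 was at 48.3 ± 0.711 CPM in WT and at 68.3 ± 2.90 CPM in Y641F, 68.5 ± 0.445 CPM in A677G and 45.6 ± 1.54 CPM in the LOF line (SD, n = 3 each). Its log2 fold change was 0.50 in both GOF lines (edgeR adjusted p = 1.1e-09 in Y641F and 6.19e-10 in A677G). PCDH17 rose by 0.61 in Y641F (edgeR adjusted p = 1.11e-07) and by 0.51 in A677G (edgeR adjusted p = 2.86e-06). PCDH7 rose by 0.21 and PCDH20 fell by 0.38 in A677G (edgeR adjusted p = 0.00177 and 0.0143). The call on PCDH20 was lost without WT replicate 1, A677G replicate 1 or A677G replicate 2, and the calls on PCDH10, PCDH17 and PCDH7 were kept in the 24 alternatives that differed from the reported fit. PCDH10 in the GOF lines was outside the intervals of PCDHGC3, whose upper bounds were 0.24 and 0.11, but the difference between the genes was not tested. PCDH10, PCDH17 and PCDH7 also had more counts than any gamma gene in every sample.

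**Figure D5:**
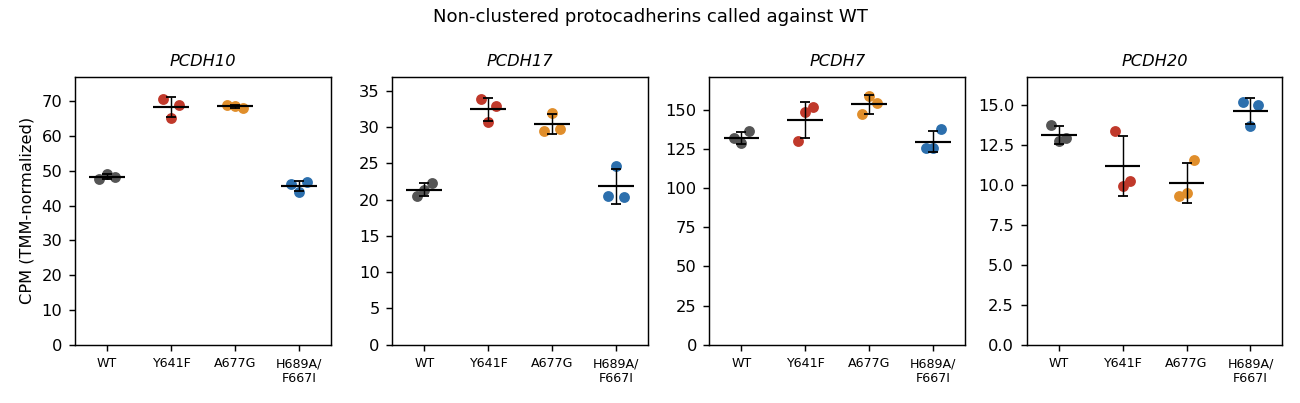
CPM of the 4 non-clustered protocadherin genes that passed the test against WT in at least 1 GOF line, on linear axes from 0. Points are the 3 replicates, and bars give the mean and SD. PCDH10 and PCDH17 are higher in all Y641F and A677G samples than in all WT samples.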

How the data were processed

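RNA-Seq libraries were prepared from total RNA of 12 HEK293T samples with the TruSeq Stranded mRNA kit. Per the labels and methods, reads were trimmed with Trim Galore 0.6.5, aligned to GRCh38 with STAR 2.7.9a and quantified with Salmon 1.2.0 on a Gencode annotation. The deposited table gives whole-number counts for each symbol and sample, which the authors had not normalized. How estimates became whole numbers per symbol, and which filter left 14438 genes, is not given in the sources used here.

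The members and gene lists were chosen with earlier results of these data known. Counts were scaled by TMM and fitted for all lines at once with the quasi-likelihood method of edgeR 4.0.16 (R 4.3.3). The study's methods name edgeR's exact test, run here as an alternative. The 175 genes listed at 0 throughout the A677G or the H689A/F667I (LOF) line were left out, and the other 14263 were tested. Intervals of 95% use the standard error and moderated degrees of freedom. P-values measure the spread between replicates of 1 line each. Levels per kb use the union of exons in GENCODE. Total counts ranged from 32137700 to 44562413, which limits precision at genes with few counts.

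The genes named were, by rule, the members called, the highest per kb, C-type, with the largest changes or left out at 0, which took all 5, and the genes of 4 lists (promoter regulators, non-clustered protocadherins, partners and chromosomal neighbours) called against EZH2 WT. Symbols were matched to GENCODE and RefSeq names (13272 by name, 807 by an older symbol, 359 without a match). Alternatives included DESeq2 1.42.0, limma 3.58.1, other scalings and filters, a GC correction, the replicate block and each replicate left out. The scripts were tested on simulated data. Proteins, chromatin and methylation were not analysed here, and 1 gene of the partner list is left out of the text and its counts.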

Additional observations from a re-analysis of the deposited data

How the results depend on the processing

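Of the 13 alternatives, the one without a filter on low counts was identical to the reported fit, and the exact test was not run for the GOF mean against the LOF line. Over the alternatives run and 12 fits that each left out 1 replicate, the number of members called stayed at 0 except where genes listed at 0 were kept. Then 1 member was called in A677G against WT, 2 in the LOF line against WT, 1 in Y641F against A677G and 1 in the mean of the GOF mutants against the LOF line, which were PCDHGB5 and PCDHGB7, through their zeros.

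With the replicate block, 0 members were called in each comparison, and the log2 fold change of PCDHGB7 in Y641F against WT was 0.00220 in place of -0.02. Replicates with the same number did not deviate together, with correlations of -0.06 to 0.05 over 18 pairs, so the number is not taken as a pairing.

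No log2 fold change of a member passed the test under an alternative where the member had counts in both groups. Several differences changed sign, and the cause was not tested. Without A677G replicate 1, PCDHGB7 went from 0.37 to -0.052 for A677G against WT and from -0.38 to 0.034 for Y641F against A677G, and without Y641F replicate 1, PCDHGC4 went from 0.13 to -0.17 for Y641F against A677G. With voom weights, the change of PCDHGC4 in the LOF line was -0.0029. When each replicate was left out in turn, the change of PCDHGA11 against WT lay between -0.15 and 0.031 for Y641F and between -0.041 and 0.11 for the LOF line, and the contrast of the GOF mean with the LOF line between -0.023 and 0.13. PCDHGB7 lay between -0.32 and 0.62 for Y641F and between -0.052 and 1.00 for A677G, and the contrast of these lines between -0.69 and 0.034. PCDHGC3 lay between -0.12 and 0.0075 for A677G. PCDHGA11 lay between 0.14 and 0.31 for A677G. PCDHGC4 lay between 0.32 and 0.92 for Y641F, between 0.19 and 0.79 for A677G and between -0.24 and 0.36 for the LOF line, and the contrast of the GOF lines between -0.17 and 0.37. PCDHGB5 lay between 0.52 and 1.53 for Y641F. Medians and sums over the gamma genes moved by less than the spread between replicates.

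Of 16 calls against WT on genes of the 4 lists, 5 passed in the 24 alternatives that differed from the reported fit, namely PCDH10 and PCDH17 in both GOF lines and PCDH7 in A677G. The other 11 were lost in at least 1 fit that left out a replicate. WIZ was lost in 10 of these 24 alternatives in each line, also with a GC correction.

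Medians for the alpha and beta clusters were not run, as these genes were not analysed here. Low counts limit what can be said of PCDHGC4, PCDHGB5 and PCDHGB7.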
